A study of Mus musculus with 22 samples.

Results

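Cells of 2 mouse mammary cancers grown in EpiC medium were compared with the 2 primary cancers from which they were grown. The members were chosen by title from a deposited table of 6 libraries, and comprised 4 of the 22 libraries of the series: EpiC cultures 1 and 2, and primary cancers 1 and 2, paired by number. All 4 came from nulliparous C57Bl/6 females that carried 1 floxed exon 11 allele of Brca1 and 1 wild-type allele, a Cre recombinase under the MMTV promoter, and 1 intact copy of Trp53 (Brca1fl11/WT, MMTV-Cre, Trp53-/+), so cultures and cancers have 1 labelled genotype. The table also held CRC cultures 1 and 2 of the same cancers, which entered the model to estimate the spread and are compared with the EpiC cultures only briefly. By its title, the series set a mammary-optimised way of culturing primary cancer cells against conditional reprogramming.

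EpiC is a medium designed for mammary epithelial cells. Conditional reprogramming (CRC) instead grows epithelial cells together with irradiated feeder cells. A primary mammary cancer holds macrophages and other leukocytes, fibroblasts, blood vessels and their matrix beside the cancer epithelium, whereas a culture medium selects for the cells that attach and divide in it.

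Several features limit the groups as a model. MMTV-driven Cre acts mainly in mammary and other secretory epithelium and need not recombine every cell, and a value for the whole gene does not show whether the floxed allele was lost. Titles of both cancers begin with the same number and differ by a letter, so they may come from 1 animal, and each culture is present as 1 library. By title the libraries of a group come from different cancers, but the labels do not say whether they come from different animals. A p-value here therefore reflects no more than how these particular samples vary, and part of that variation may be technical. In such bulk RNA, fewer cells of a type and less RNA per cell cannot be told apart.

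Expression was measured as FPKM (fragment counts scaled to transcript length and to the mapped fragments of the library). FPKM summed to 710511 and 654301 in EpiC cultures 1 and 2 and to 683983 and 607519 in cancers 1 and 2, but to 1615927 in CRC culture 2, which stood apart from the rest. No read counts were analysed here, so the depth behind each value is unknown and no counting interval is given. After entries that shared a symbol were summed, 12266 of 23490 symbols had a mean of at least 1 FPKM over the 6 libraries and were tested with limma on log2(FPKM + 1), a scale that understates the change of low genes. Values of 0 need caution, since 6 of the 3508 genes at 10 FPKM or more in every library of the other deposited table had a listed value of 0 in 1 or more of the 6 libraries.

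The EpiC cultures resembled each other more than the cancers did. Across the 12266 genes the median absolute log2 difference was 0.423 between the EpiC cultures and 0.646 between the cancers, and 3.05% of genes differed at least 4-fold between the cultures against 11.3% between the cancers. Within the pairs the median absolute log2 difference was 0.676 for EpiC 1 against cancer 1 and 0.538 for EpiC 2 against cancer 2. EpiC 1 resembled cancer 2 (r = 0.80 across genes, which are not independent replicates) more than its own cancer 1 (r = 0.719). EpiC 2 also resembled cancer 2, its own, more (r = 0.804) than cancer 1 (r = 0.759), so both cultures were closer to cancer 2.

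Macrophage genes (11 of 20 tested markers) and MHC class II genes (4) fell in the EpiC cultures relative to the cancers, with 4 of 16 fibroblast and 1 of 10 endothelial markers, and most of these were below 1 FPKM in both cultures. The simple epithelial keratins were abundant in cultures and cancers alike. At an adjusted p under 0.05 (limma, Benjamini-Hochberg over all genes tested), 83 genes (0.677% of those tested) were called, of which 52 (0.424%) fell and 31 (0.253%) rose. Without adjustment, 834 genes (6.8%) had a p under 0.05, of which 321 (2.62%) had a higher and 513 (4.18%) a lower mean in the cultures; over all genes tested the mean was higher in 55.2% and lower in 44.8%. With the cancer number as a block, which pairs each culture with its own cancer, 29 of the 83 genes were called (19 lower and 10 higher). In a fit of only the 4 libraries with that block, 0 genes were called (limma; 943 at an unadjusted p under 0.05), the macrophage and class II genes included. Removing EpiC 1 gave 0 calls (480 genes at an unadjusted p under 0.05) and removing EpiC 2 gave 7, all higher and 3 of them among the 83, whereas removing cancer 1 gave 227, cancer 2 gave 284, CRC culture 1 gave 51 and CRC culture 2 gave 37.

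**Figure D1:**
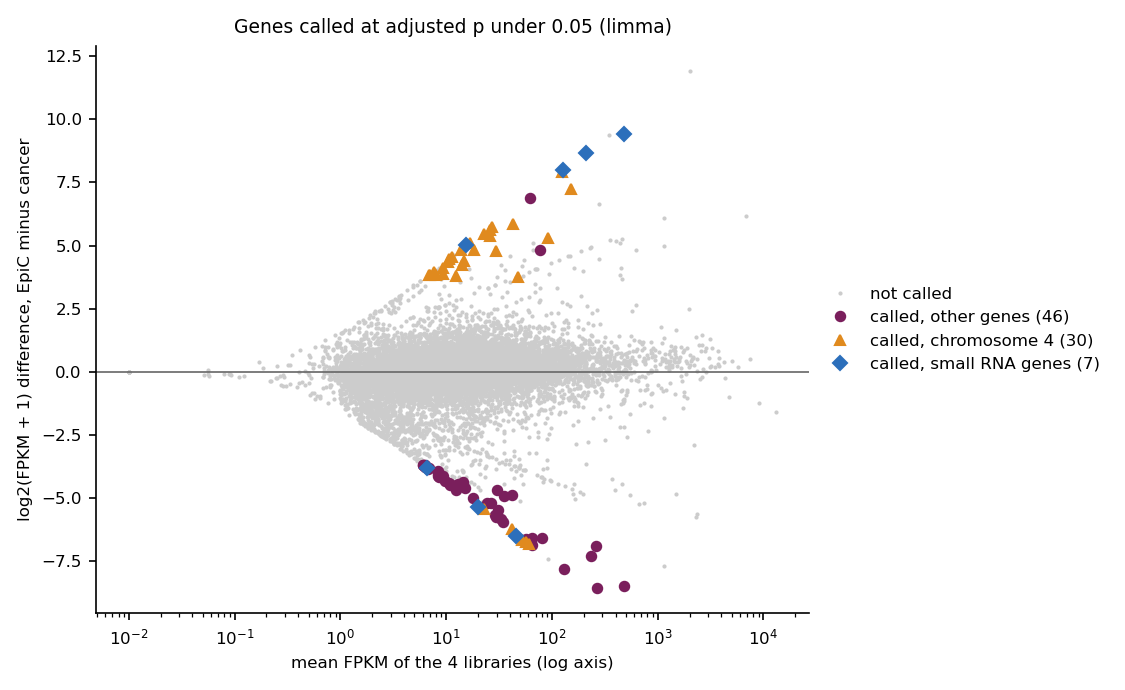
Fitted log2(FPKM + 1) difference, EpiC minus cancer, against the mean FPKM of the 4 libraries (log axis) for the 12266 genes tested, with called genes marked as on chromosome 4, as small RNA genes or as neither. The 52 called genes below 0 are mostly neither, while of the 31 above 0 the 25 triangles lie on chromosome 4.

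Macrophage markers had the lowest median difference of the lists tested. Of the 21 macrophage markers present, 20 were tested, and 11 fell (9 with the block) while none rose; their median log2 difference was -4.51, against 0.08 for all genes tested. Both cultures lay below both cancers for 19 of the 20, a pattern seen in 15.8% of all genes tested. Of the 21, 18 were below 1 FPKM in both EpiC cultures and mostly passed the filter through the cancers, so these counts describe the list and are no independent measure of it.

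Lyz2, the lysozyme of macrophages and neutrophils, had 0.346 and 0.390 FPKM in EpiC 1 and 2, against 365 and 703 FPKM in cancers 1 and 2. Both cultures were thus below 1 FPKM with the cancers far above, and the log2 difference was -8.54 (SE 0.56, adjusted p = 0.0057, limma). Ctss, the lysosomal protease cathepsin S, had 0.128 and 0.222 FPKM in the EpiC cultures, against 230 and 294 FPKM in the cancers (log2 difference -7.80, SE 0.53, adjusted p = 0.0057, limma). Tyrobp, a signalling adaptor of myeloid receptors, was listed at 0 in EpiC 1 and had 0.141 FPKM in EpiC 2, against 93.3 and 137 FPKM in the cancers (log2 difference -6.74, SE 0.55).

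Fcer1g, the common gamma chain of Fc receptors, was listed at 0 in EpiC 1 and had 0.225 FPKM in EpiC 2, against 57.2 and 79.1 FPKM in the cancers. Mpeg1, a pore-forming protein of phagocytes, had 0.321 and 0.396 FPKM in the EpiC cultures and 46.2 and 50.1 FPKM in the cancers. Spi1, which encodes PU.1, the transcription factor that sets up the myeloid lineage, had 0.0436 FPKM in EpiC 1 and was listed at 0 in EpiC 2, against 9.81 and 14.6 FPKM in the cancers (log2 difference -3.67, SE 0.54, adjusted p = 0.046, limma; 0.084 with the block). For each of these 3 genes both cultures were low and both cancers high, with no overlap.

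Not all macrophage markers were near 0 in culture. Cd14, the co-receptor for bacterial lipopolysaccharide, had 55.8 and 109 FPKM in the EpiC cultures and 370 and 108 FPKM in the cancers, so the groups overlapped. Cd68, a lysosomal membrane protein, had 7.66 and 30.9 FPKM in the EpiC cultures and 34.8 and 58.9 FPKM in the cancers and was not called. Csf1r, the receptor for macrophage colony-stimulating factor, had 5.67 and 4.75 FPKM in the EpiC cultures and 28.5 and 59.8 FPKM in the cancers and was not called either (log2 difference -2.77, SE 0.61, adjusted p = 0.15, limma). Summed over the 21 markers, the level was 71.2 and 147 FPKM in the EpiC cultures, most of it Cd14 and Cd68, and 1708 and 1998 FPKM in the cancers.

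Of the 11 macrophage genes called, 4 lie on chromosome 4, where values in the cultures were irregular: C1qa, C1qb and C1qc, the chains of complement C1q, and Laptm5. C1qa had 0.112 and 0.0874 FPKM in the EpiC cultures and 124 and 119 FPKM in the cancers. On other chromosomes 7 of 16 tested markers fell. Over all genes, 5 of 889 on chromosome 4 (0.562%) and 47 of 11377 elsewhere (0.413%) were called lower.

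Promoters of macrophage genes that fell are shown here as sequence only, and a role of PU.1 in their values was not tested. The sequences are RefSeq's for GRCm38.p6, the 250 bases before each transcription start, in the gene's own direction, and capitals mark AGGAA or its reverse complement TTCCT, the letters at the core of many PU.1 sites, searched on both strands. They are from chr10:117282273-117282522 (minus strand), chr3:95526536-95526785 (plus) and chr1:171234350-171234599 (minus).
Lyz2: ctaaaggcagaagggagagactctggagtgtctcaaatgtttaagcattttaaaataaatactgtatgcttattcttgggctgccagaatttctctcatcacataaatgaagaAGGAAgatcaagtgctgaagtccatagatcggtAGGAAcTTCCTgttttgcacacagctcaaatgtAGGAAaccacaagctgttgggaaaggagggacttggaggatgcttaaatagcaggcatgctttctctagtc
Ctss: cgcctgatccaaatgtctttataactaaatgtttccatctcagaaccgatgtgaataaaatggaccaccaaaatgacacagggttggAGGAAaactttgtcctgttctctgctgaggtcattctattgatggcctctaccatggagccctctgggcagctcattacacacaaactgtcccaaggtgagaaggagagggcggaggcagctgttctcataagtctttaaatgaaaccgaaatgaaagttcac
Fcer1g: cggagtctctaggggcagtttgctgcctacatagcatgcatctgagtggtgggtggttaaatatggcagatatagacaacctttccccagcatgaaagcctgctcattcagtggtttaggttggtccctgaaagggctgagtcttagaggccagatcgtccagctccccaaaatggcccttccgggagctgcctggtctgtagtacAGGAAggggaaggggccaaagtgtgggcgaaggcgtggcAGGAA

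Lyz2 held 4 matches, Ctss 1 and Fcer1g 2. Among 32536 RefSeq promoters of the same length, 60.2% held at least 1 match and 26.1% at least 2, and the letters were chosen after the calls were known. The matches are a description of these windows and show no binding.

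MHC class II genes fell with the macrophage genes. Of the 20 antigen presentation genes present, 19 were tested and 4 fell, all of class II, while none rose. Over all genes tested, 0.424% fell. H2-DMa and H2-DMb1, also class II genes of the list, were not among those called. Cd74, the invariant chain that escorts class II molecules, had 4.65 and 2.05 FPKM in the EpiC cultures, against 671 and 359 FPKM in the cancers (log2 difference -6.89, SE 0.60, adjusted p = 0.0091, limma). H2-Aa, H2-Ab1 and H2-Eb1, chains of the class II molecules themselves, were below 1 FPKM in both EpiC cultures and between 80.2 and 199 FPKM in the cancers, with log2 differences of -6.59 to -6.84.

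No gene of the class I arm, by which all nucleated cells show peptides, was called. Even so, 18 of the 19 antigen presentation genes tested, class II included, had a lower mean in culture, against 44.8% of all genes tested. Their median log2 difference was -0.87, and both cultures lay below both cancers for 7, against 15.8% of all genes tested. B2m, the light chain of class I molecules, had 1577 and 964 FPKM in the EpiC cultures and 2813 and 2259 FPKM in the cancers, without overlap (log2 difference -1.03, SE 0.80). H2-K1, a class I heavy chain, had 389 and 185 FPKM in the EpiC cultures and 1025 and 206 FPKM in the cancers, so the groups overlapped. Ciita, the activator of class II genes, was under the filter, at 0 and 0.0889 FPKM in the EpiC cultures and 0.960 and 0.725 FPKM in the cancers.

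Class II promoters are shown with the letters ATTGG or CCAAT in capitals, those of the Y box, a conserved element just before the start of class II genes. They are RefSeq's for GRCm38.p6, from chr17:34287824-34288073 (minus strand) and chr17:34305617-34305866 (plus).
H2-Aa: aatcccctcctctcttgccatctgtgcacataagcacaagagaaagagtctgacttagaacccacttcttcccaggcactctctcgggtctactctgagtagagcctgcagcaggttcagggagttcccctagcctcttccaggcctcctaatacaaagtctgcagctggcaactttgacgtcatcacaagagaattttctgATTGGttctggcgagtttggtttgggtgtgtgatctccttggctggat
H2-Eb1: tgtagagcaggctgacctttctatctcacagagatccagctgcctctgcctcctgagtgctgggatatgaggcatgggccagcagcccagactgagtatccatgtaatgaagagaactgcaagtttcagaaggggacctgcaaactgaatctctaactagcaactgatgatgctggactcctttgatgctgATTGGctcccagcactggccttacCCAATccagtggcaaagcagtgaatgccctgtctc

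H2-Aa held 1 match, starting 48 bases before the transcription start, and H2-Eb1 held 2, at 59 and 35 bases before it. At least 1 match was found in 33.8% of the 32536 promoters.

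Markers of other leukocytes gave 1 call. S100a9, a calcium-binding protein abundant in neutrophils, had 0.466 and 1.6 FPKM in the EpiC cultures, against 115 and 814 FPKM in the cancers (log2 difference -7.30, SE 0.92, adjusted p = 0.028, limma; 0.051 with the block). Its partner S100a8 had 5.24 and 15.4 FPKM in the EpiC cultures and 133 and 630 FPKM in the cancers, and was not called (adjusted p = 0.074, limma). S100a9 was the 1 gene called of 7 neutrophil markers tested, while 0.424% of all genes tested were called lower. Of the other markers, Csf3r, the receptor for granulocyte colony-stimulating factor, was the 1 with a higher mean in culture, at 17.3 and 19.9 FPKM in the EpiC cultures and 4.67 and 24.0 FPKM in the cancers (log2 difference 0.71, SE 1.02, adjusted p = 1, limma). All 18 T and NK cell markers present were below 1 FPKM in both EpiC cultures, and of these only Ptprc, the pan-leukocyte phosphatase CD45, passed the filter; it was not called. None of 11 B and plasma cell markers passed the filter, and their summed level was 2.34 and 1.5 FPKM in the EpiC cultures and 2.28 and 1.11 FPKM in the cancers.

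Apoe, the apolipoprotein secreted by macrophages and many other cells, fell to 1.65 and 1.71 FPKM in the EpiC cultures, against 1148.5 and 767 FPKM in the cancers (log2 difference -8.45, SE 0.63, adjusted p = 0.0068, limma). Srgn, the proteoglycan core of leukocyte granules, fell to 0.0671 and 0.105 FPKM in the EpiC cultures, against 47.8 and 213 FPKM in the cancers (log2 difference -6.56, SE 0.78; adjusted p = 0.051 with the block). The Fc receptor genes Fcgr2b and Fcgr3, the NADPH oxidase genes Cybb and Ncf4 and the chemokine receptor Cxcr4 were also among the 52, chosen here after their values were seen.

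Fewer fibroblast and matrix genes passed the test. Of 22 fibroblast markers 16 were tested and 4 fell, with a median log2 difference of -2.73, while 0.424% of all genes tested fell. As 16 of the 22 were below 1 FPKM in both EpiC cultures, members entered the test largely through the cancers, and the count describes the list only. Bgn, the matrix proteoglycan biglycan, had 0.0450 and 0.351 FPKM in the EpiC cultures, against 65.6 and 66.8 FPKM in the cancers (log2 difference -5.82, SE 0.73, adjusted p = 0.028, limma). Col1a1, the main chain of fibrillar collagen I, had 0.296 and 0.478 FPKM in the EpiC cultures, against 68.4 and 36.2 FPKM in the cancers (log2 difference -5.20, SE 0.73, adjusted p = 0.040, limma). Both cultures were below 1 FPKM for these genes, and the groups did not overlap.

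Postn, the matricellular protein periostin, had 0.311 and 2.37 FPKM in the EpiC cultures and 99.1 and 38.4 FPKM in the cancers. Thbs2, thrombospondin 2, had 0.301 and 0.0402 FPKM in the EpiC cultures and 16.4 and 16.5 FPKM in the cancers. With the block all 4 fibroblast calls were lost (adjusted p = 0.051 for Bgn, 0.078 for Col1a1 and Thbs2, and 0.098 for Postn, limma). Without chromosome 4 genes, which changes the set over which p is adjusted, Col1a1 had an adjusted p of 0.058 and Postn and Thbs2 of 0.074.

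Collagen genes mostly had lower means in culture, 17 of 18 tested. Col1a1 was the 1 gene called of these, whose median log2 difference was -2.23, while 0.424% of all genes tested were called lower. Both cultures lay below both cancers for 12, against 15.8% of all genes tested. The fibrillar Col3a1 had 0.0184 and 0.0572 FPKM in the EpiC cultures and 70.1 and 17.7 FPKM in the cancers (log2 difference -5.14, SE 0.81, adjusted p = 0.054, limma). Col18a1, a basement membrane collagen, had 21.0 and 21.0 FPKM in the EpiC cultures and 19.8 and 71.8 FPKM in the cancers, so the groups overlapped. Fn1, the adhesive matrix protein fibronectin, was high in all 4 libraries, with 252 and 129 FPKM in the EpiC cultures and 191 and 286 FPKM in the cancers.

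Vessel genes were close to 0 in culture. Emcn, the endothelial sialomucin endomucin, was listed at 0 in both EpiC cultures and had 10.7 and 16.3 FPKM in the cancers (log2 difference -3.83, SE 0.54, adjusted p = 0.040, limma; 0.077 with the block and 0.058 without chromosome 4 genes). Pecam1, the endothelial junction protein CD31, had 0.113 and 0.0420 FPKM in the EpiC cultures and 9.47 and 14.1 FPKM in the cancers and missed the threshold (adjusted p = 0.051, limma). Emcn was the 1 gene called of 10 endothelial markers tested of 18 in the table, while 0.424% of all genes tested were called lower. Both cultures lay below both cancers for all 10, against 15.8% of all genes tested. Of the 18, 15 were below 1 FPKM in both EpiC cultures and mostly passed the filter through the cancers, so the count is a description. None of 7 pericyte and smooth muscle markers tested was called, and their median log2 difference was -2.51. A lower mean at an unadjusted p under 0.05 was found for 6 (limma), against 4.18% of all genes tested.

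**Figure D2:**
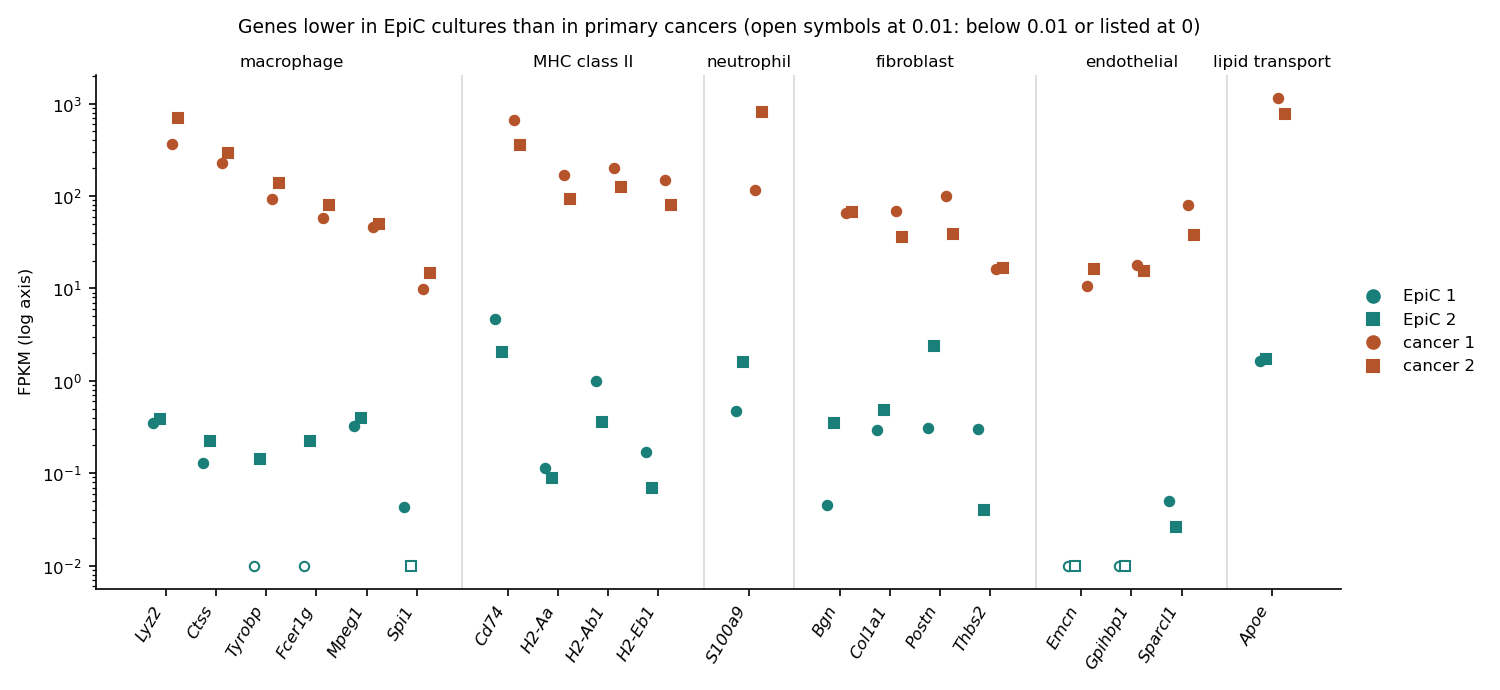
FPKM (log axis) of called leukocyte, fibroblast and endothelial genes in each library, with EpiC cultures left of primary cancers for each gene; open symbols stand at 0.01 FPKM for values below it or listed at 0. Every EpiC value is at most 4.65 FPKM (Cd74 in EpiC 1), and every cancer value is at least 9.81 FPKM (Spi1 in cancer 1). Gpihbp1 and Sparcl1, drawn beside Emcn, are not on the endothelial list and were picked outside the naming rule. Apoe, drawn under lipid transport, is on no list.

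Entries that hold miRNA hairpin genes were among those that fell, namely an entry that joins F630028O10Rik with Mir223 and the entry Mir142b. The joint entry had 0.0191 and 0 FPKM in the EpiC cultures, against 17.9 and 25.2 FPKM in the cancers (log2 difference -4.46, adjusted p = 0.027, limma). Mir142b was listed at 0 in both EpiC cultures, against 15.2 and 11.0 FPKM in the cancers. Polyadenylated RNA was sequenced, so these values concern precursors or host transcripts and not mature miRNAs, and FPKM of such short features is unstable. The mature sequences made from these hairpins are RefSeq's for GRCm38.p6 with the seed (bases 2 to 8) in capitals.
mmu-miR-223-3p: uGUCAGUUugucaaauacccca
mmu-miR-223-5p: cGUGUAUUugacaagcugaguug
mmu-miR-142b: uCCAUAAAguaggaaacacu

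The 3 seeds differ from one another.

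The genes that rose were nearly all on 1 chromosome. Of the 31 called higher in the EpiC cultures, 25 lie on chromosome 4, 4 others are small RNA genes, 1 (BC049635) has no chromosome in the RefSeq table, and the remaining gene is Fgfbp1. On chromosome 4, 25 of 889 tested genes (2.81%) were called higher, against 6 of 11377 (0.0527%) elsewhere. Of the 25, 18 were below 1 FPKM in all 16 libraries of the other deposited table, which was normalised separately.

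Slc2a7, a sugar transporter, had 329 and 173 FPKM in the EpiC cultures and was listed at 0 in both cancers. Tas1r2, a sweet taste receptor, had 31.0 and 24.4 FPKM in the EpiC cultures and was listed at 0 in both cancers. Olfr157, an olfactory receptor gene, had 29.6 and 12.4 FPKM in the EpiC cultures and was listed at 0 in both cancers. Across chromosome 4 genes the correlation of EpiC with cancer libraries was 0.526 to 0.655, below the 0.737 to 0.818 of genes on other chromosomes, and the 25 genes are therefore given as values of the deposited table only. The cause of the chromosome 4 values was not tested.

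Fgfbp1, a secreted carrier that releases fibroblast growth factors from the matrix, was the 1 gene called higher that lies on another chromosome and is not a small RNA gene. It had 118 and 182 FPKM in the EpiC cultures, against 6.97 and 2.33 FPKM in the cancers (log2 difference 4.84, SE 0.67, adjusted p = 0.040, limma). Both cultures were above both cancers, and the CRC cultures, at 70.5 and 163 FPKM, were high as well. The adjusted p was 0.084 with the block, 0.058 without chromosome 4 genes, 0.064 after rescaling by median ratios and 0.040 without chromosome 4 and small RNA genes.

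Proliferation genes were higher on average in both cultures, although none was called. All 28 mitosis genes in the table were tested and had a higher fitted mean in the EpiC cultures, with a median log2 difference of 1.47, and for 25 of them both cultures lay above both cancers, against 22.9% of all genes tested. A higher mean at an unadjusted p under 0.05 was found for 13 (limma), against 2.62% of all genes tested. The median was 2.21 in pair 1 and 0.75 in pair 2. DNA replication genes gave a median log2 difference of 1.07 over 25 genes, with both cultures above both cancers for 21 and 6 at an unadjusted p under 0.05.

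Ccnb1, the cyclin that drives entry into mitosis, had 105 and 97.2 FPKM in the EpiC cultures and 13.4 and 26.1 FPKM in the cancers (log2 difference 2.37, SE 0.57, adjusted p = 0.19, limma). Birc5, the chromosomal passenger survivin, had 217 and 178 FPKM in the EpiC cultures and 56.6 and 63.9 FPKM in the cancers. Mki67, the proliferation marker Ki-67, had 45.6 and 24.5 FPKM in the EpiC cultures and 16.2 and 14.1 FPKM in the cancers. The cultures were the higher group for each of the 3 genes, without overlap, and cancer 1 was lower than cancer 2 for Ccnb1 and Birc5.

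Homologous recombination genes, the pathway in which Brca1 acts, followed the same order without a call (median log2 difference 1.03 over 21 genes, 17 without overlap, 2 at an unadjusted p under 0.05). Over all genes tested, both cultures lay above both cancers in 22.9%, and 2.62% had a higher mean at an unadjusted p under 0.05 (limma). Brca1, summed over floxed and wild-type alleles, had 8.36 and 7.24 FPKM in the EpiC cultures and 2.05 and 3.89 FPKM in the cancers (log2 difference 1.18, SE 0.73, adjusted p = 0.97, limma). Trp53, the tumour suppressor of which these mice kept 1 intact copy, had 18.4 and 19.7 FPKM in the EpiC cultures and 18.3 and 16.3 FPKM in the cancers, and its 22 tested target genes had a median log2 difference of 0.12.

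Cholesterol synthesis and amino acid stress genes also mostly had higher means in culture, again without a call. For cholesterol synthesis, the pathway from acetyl-CoA to sterols, 20 of 22 tested genes had a higher mean in the EpiC cultures. The median log2 difference was 1.28, and both cultures lay above both cancers for 18, against 22.9% of all genes tested. A higher mean at an unadjusted p under 0.05 was found for 10 (limma), against 2.62% of all genes tested. Insig1, which holds back sterol synthesis, had 73.9 and 80.3 FPKM in the EpiC cultures and 17.7 and 12.8 FPKM in the cancers (log2 difference 2.28, SE 0.52, adjusted p = 0.16, limma). Fdps, farnesyl diphosphate synthase, had 289 and 277 FPKM in the EpiC cultures and 63.3 and 70.1 FPKM in the cancers. Hmgcs1, another enzyme of the pathway, was listed at 0 in all 6 libraries and could not be judged.

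Amino acid stress genes, targets of the transcription factor ATF4 that respond to amino acid supply, had a higher mean in 20 of 24 and a median log2 difference of 1.08. A higher mean at an unadjusted p under 0.05 was found for 9 (limma), against 2.62% of all genes tested. Asns, asparagine synthetase, had 136 and 136 FPKM in the EpiC cultures and 13.4 and 24.3 FPKM in the cancers (log2 difference 2.84, SE 0.50, adjusted p = 0.080, limma). Phgdh, the first enzyme of serine synthesis, had 378 and 291 FPKM in the EpiC cultures and 24.8 and 66.6 FPKM in the cancers (log2 difference 2.99, SE 0.62, adjusted p = 0.12, limma). Both genes were several-fold higher in each culture than in either cancer, but neither passed the test over all genes.

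Smaller median differences were seen in the ribosomal protein genes (median log2 difference 0.53 over 30, 28 with a higher mean), the oxidative phosphorylation genes (0.52 over 28, 24 with a higher mean) and the lysosomal genes (-0.53 over 22, 21 with a lower mean), with none called and none at an unadjusted p under 0.05 (limma). ErbB receptor and ligand genes had a median log2 difference of 0.94 over 10 and fatty acid synthesis genes 0.54 over 16, also with none called and none at an unadjusted p under 0.05 (limma). Where the proliferation and synthesis lists were higher, the summed macrophage, endothelial and fibroblast markers were lower in the same 2 libraries. The summed endothelial level was 14.8 and 5.5 FPKM in the EpiC cultures and 109 and 111 FPKM in the cancers, and the summed fibroblast level, most of it Fn1 and Fbln2 in culture, was 309 and 174 FPKM in the EpiC cultures and 750 and 671 FPKM in the cancers. The part of these other cells in the differences of the proliferation and synthesis lists was not tested.

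**Figure D3:**
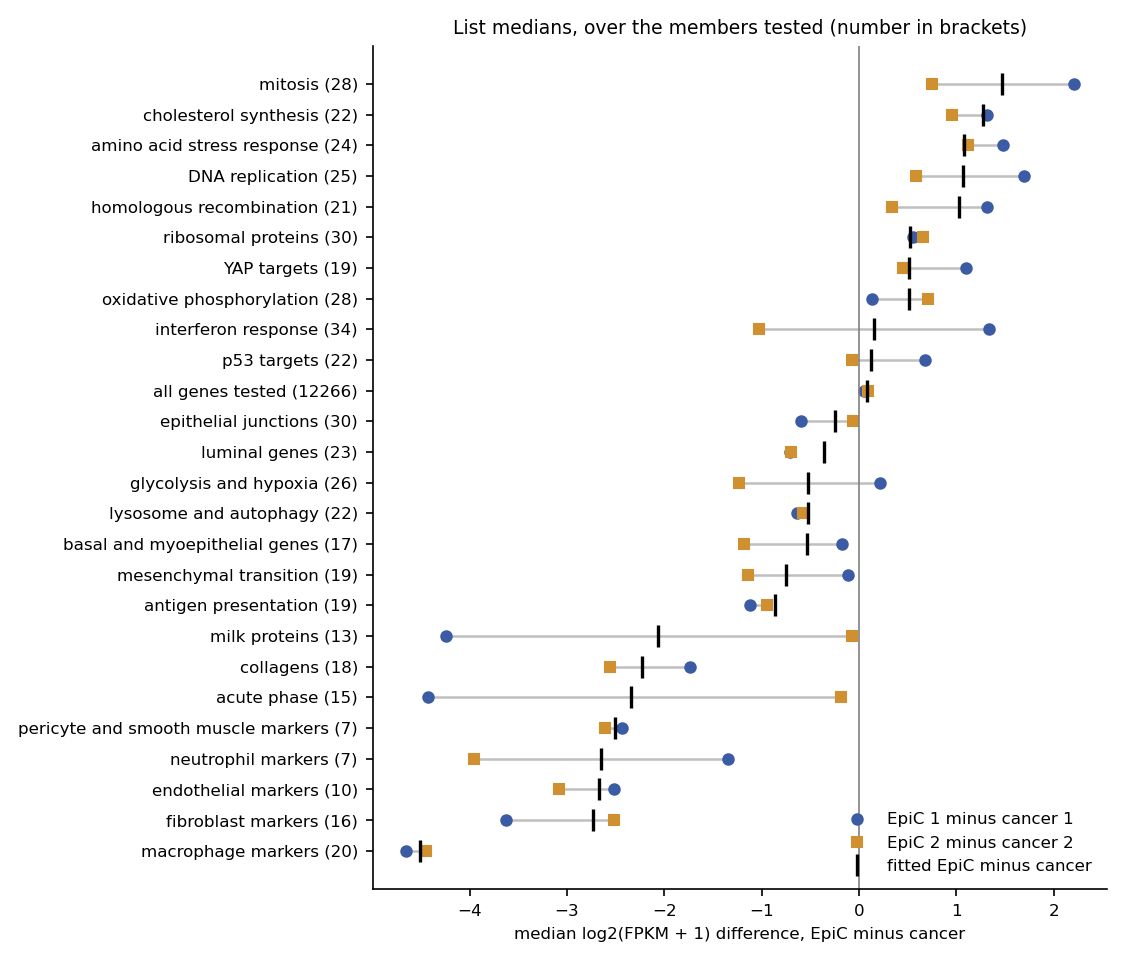
Median log2(FPKM + 1) difference, EpiC minus cancer, over the tested members of each list (number in brackets): EpiC 1 minus cancer 1 (circles), EpiC 2 minus cancer 2 (squares) and the fitted difference (bars). Macrophage markers lie at -4.51 with both pairs together, while milk proteins, acute phase and interferon genes differ between the pairs.

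The general epithelial markers of the labelled mammary tissue were high in all 4 libraries, and none of the markers below was called. Krt8 and Krt18, the keratin pair of simple epithelia, had 475 and 498 FPKM and 648 and 693 FPKM in the EpiC cultures, against 375 and 1694 FPKM and 478 and 1247 FPKM in the cancers. Epcam, the epithelial adhesion molecule, had 283 and 409 FPKM in the EpiC cultures and 864 and 174 FPKM in the cancers. Cdh1, E-cadherin, had 140 and 119 FPKM in the EpiC cultures and 114 and 215 FPKM in the cancers. The groups overlapped for all 4 genes, and the cancers differed from each other more than the cultures did.

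None of 23 luminal genes and none of 30 junction genes tested was called, with median log2 differences of -0.36 and -0.25. An unadjusted p under 0.05 (limma) was found for 3 and 1 of them, against 6.8% of all genes tested. Within the luminal list, Kit, a receptor of luminal progenitors, had 0.0297 and 0.0206 FPKM in the EpiC cultures and 80.3 and 1.03 FPKM in the cancers. Elf5, a transcription factor of alveolar cells, had 0.0512 and 2.21 FPKM in the EpiC cultures and 84.8 and 0.0912 FPKM in the cancers. Cancer 1 alone was high for both genes.

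None of 17 basal and myoepithelial genes tested was called (2 at an unadjusted p under 0.05, limma, against 6.8% of all genes tested). Both cultures lay below both cancers for 6, against 15.8% of all genes tested. The summed level of the list was 813 and 331 FPKM in the EpiC cultures and 310 and 1246 FPKM in the cancers, so the groups overlapped. Krt5, a basal keratin, had 0.198 and 0.193 FPKM in the EpiC cultures and 7.30 and 1.2 FPKM in the cancers, and Krt14, its partner, had 14.1 and 142 FPKM in the EpiC cultures and 48.6 and 195 FPKM in the cancers. Tagln, an actin-binding protein of smooth muscle and myofibroblasts, had 0.427 and 0.333 FPKM in the EpiC cultures and 41.5 and 19.0 FPKM in the cancers (log2 difference -4.40, SE 0.70, adjusted p = 0.054, limma). Vim, vimentin, had 129 and 26.3 FPKM in the EpiC cultures and 122 and 422 FPKM in the cancers, so the groups overlapped.

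Of the receptors by which mammary cancers are classed, Esr1 and Erbb2 were tested and not called. Esr1, the oestrogen receptor, had 2.99 and 0.795 FPKM in the EpiC cultures and 2.39 and 0.876 FPKM in the cancers, with both pairs close (log2 difference 0.09, 95% interval -1.55 to 1.72). Pgr, the progesterone receptor, was at most 0.137 FPKM in any of the 4 libraries and was under the filter, so it was not tested. Erbb2, the HER2 receptor, had 9.21 and 18.4 FPKM in the EpiC cultures and 24.1 and 16 FPKM in the cancers (log2 difference -0.56, SE 0.56).

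**Figure D4:**
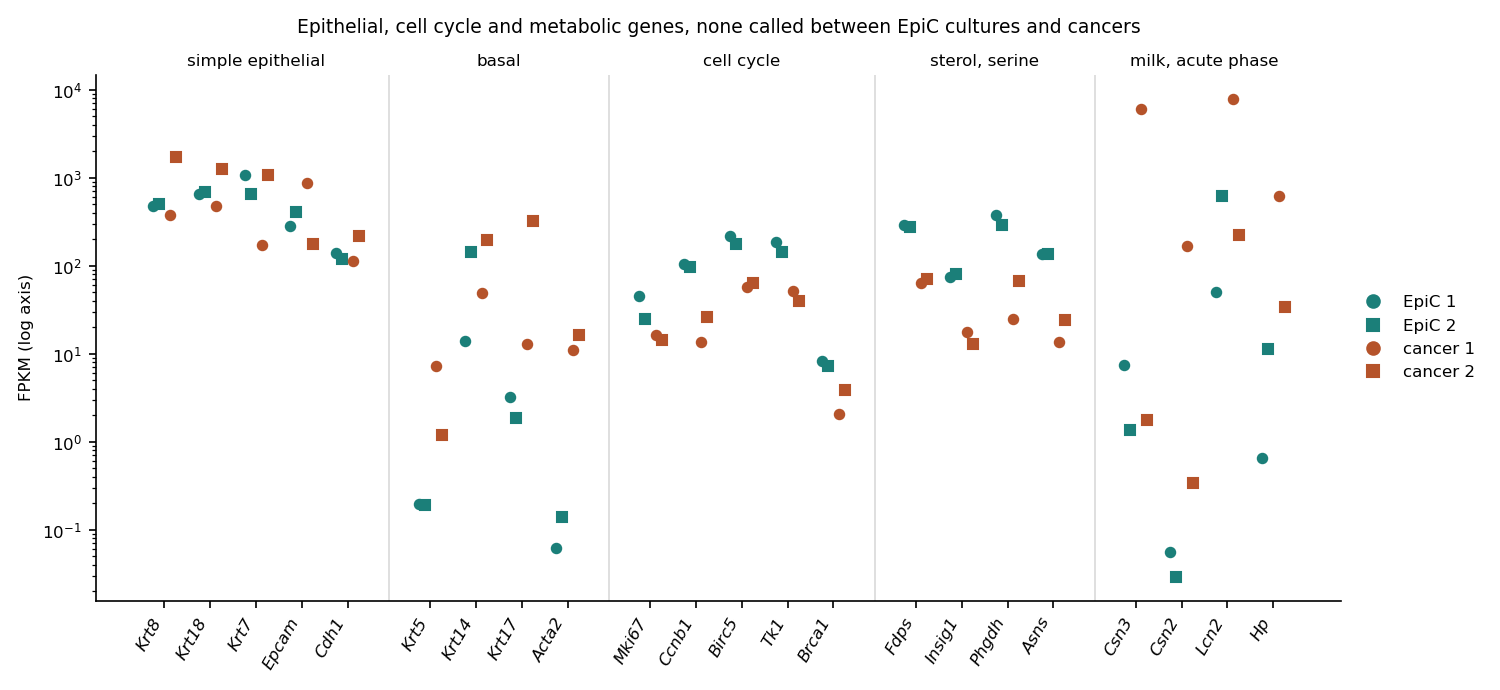
FPKM (log axis) of epithelial, basal, cell cycle, synthesis, milk and acute phase genes in each library, with EpiC cultures left of primary cancers for each gene. The EpiC cultures lie above both cancers for the 5 cell cycle and the 4 sterol and serine genes, and cancer 1 is the highest library for Csn3, Csn2, Lcn2 and Hp.

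In several lists the pairs differed, and in these lists cancers 1 and 2 differed from each other. Milk protein genes had a median log2 difference of -4.25 in pair 1 and -0.07 in pair 2 over 13 genes, and none was called. At an unadjusted p under 0.05 (limma), 1 was higher and 1 lower, against 2.62% and 4.18% of all genes tested. Csn3, kappa-casein, had 7.38 and 1.36 FPKM in the EpiC cultures and 5944 and 1.76 FPKM in the cancers. Csn2, beta-casein, had 0.0560 and 0.0291 FPKM in the EpiC cultures and 165 and 0.342 FPKM in the cancers. Cancer 1 was thus the only library of the 4 with casein transcripts above 10 FPKM in these 2 genes.

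Acute phase genes, secreted in inflammation, showed the same split, with medians of -4.43 in pair 1 and -0.19 in pair 2 over 15 genes. Of these only S100a9 was called, while 0.424% of all genes tested were called lower. Lcn2, the iron-chelating lipocalin 2, had 50.5 and 617 FPKM in the EpiC cultures and 7890 and 224 FPKM in the cancers, and Hp, haptoglobin, had 0.647 and 11.2 FPKM in the EpiC cultures and 622 and 33.6 FPKM in the cancers. EpiC 2 was higher than EpiC 1 for both genes, and cancer 1 was the highest library for both.

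Interferon response genes differed in opposite directions in the pairs. In pair 1, 30 of 34 were higher in the culture, with a median log2 difference of 1.33, and in pair 2, 28 of 34 were lower, with a median of -1.02. Oasl1, an interferon-induced antiviral gene, had 78.6 and 47.1 FPKM in the EpiC cultures and 3.85 and 98.1 FPKM in the cancers. Both cultures lay between the cancers for this gene, and no member of the list was called (1 at an unadjusted p under 0.05, limma). Glycolysis and hypoxia genes likewise had medians of 0.22 in pair 1 and -1.24 in pair 2 over 26 genes, without a call (3 at an unadjusted p under 0.05). Over all genes tested, 6.8% had an unadjusted p under 0.05 (limma).

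**Figure D5:**
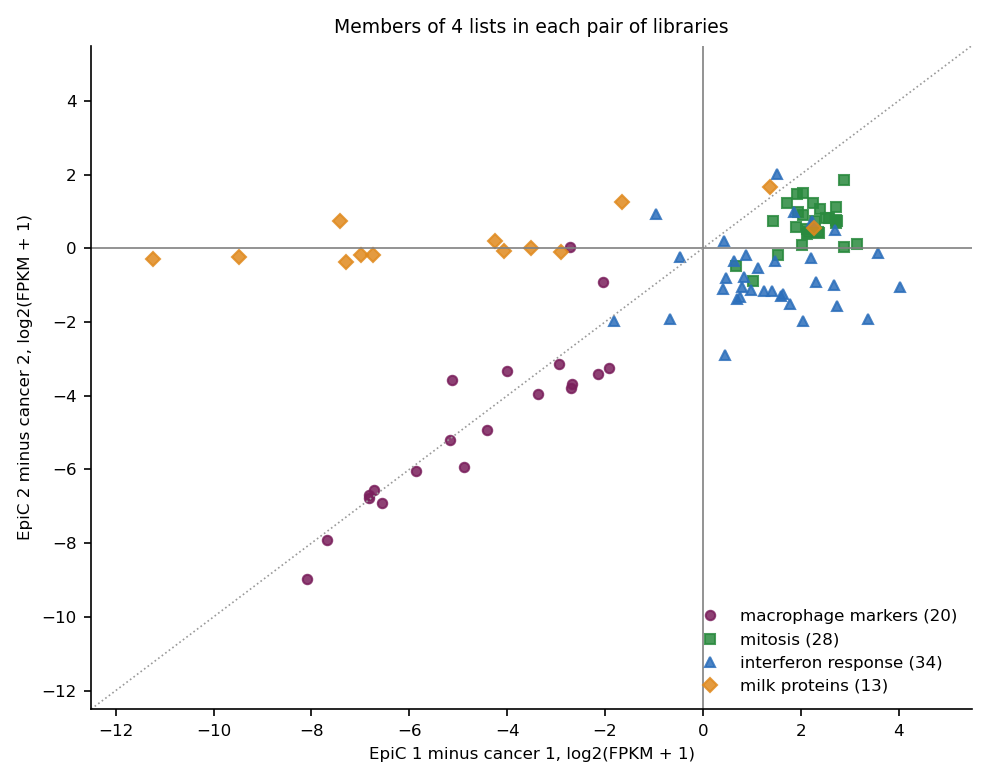
Log2(FPKM + 1) difference of EpiC 2 minus cancer 2 against EpiC 1 minus cancer 1 for the tested members of 4 lists, with the line of equal differences dotted. Macrophage markers follow the line down to about the -8.54 of Lyz2, mitosis genes lie above 0 in pair 1 for all 28 and in pair 2 for 25, milk genes lie far left but near 0 in pair 2, and interferon genes are mostly positive in pair 1 and mostly negative in pair 2.

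The CRC cultures of the same cancers showed these decreases as well; since both comparisons share the cancers, the values are given side by side only. Macrophage markers had a median log2 difference of -4.51 for EpiC minus cancer and -4.65 for CRC minus cancer, and fibroblast markers -2.73 and -2.47. The same medians were 1.47 and 1.00 for mitosis and 1.07 and 0.85 for DNA replication genes. They were 1.28 and 0.91 for cholesterol synthesis and 1.08 and 0.84 for amino acid stress genes, but 0.94 and -0.20 for ErbB genes. Of the genes called for EpiC minus cancer, 28 of the 31 higher and 45 of the 52 lower were called for CRC minus cancer too. Tested directly, EpiC minus CRC gave 1 called gene of 12266 (0.00815%; 200 at an unadjusted p under 0.05, limma), the hairpin gene entry Mir186, at 200 and 312 FPKM in the EpiC cultures and listed at 0 in the other 4 libraries. None of the 21 macrophage, class II, neutrophil, fibroblast and endothelial genes called between EpiC cultures and cancers was called between EpiC and CRC cultures.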

How the data were processed

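Polyadenylated RNA from 22 mouse libraries was sequenced, of which 6 stood in the table used here. FastQC, Trim Galore, TopHat and Cufflinks, and the mm9 build, are named without versions or roles per the submitters' processing notes. The authors deposited FPKM, per the file's name, with no counts. Among non-zero values 51.5% were longer than 6 digits, and a final 5 closed 97.2% of the longer ones, as in an average of paired values, so a column may average several runs.

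Entries were summed by symbol (162 shared symbols). Genes averaging 1 FPKM or more over 6 libraries were tested with limma 3.58.1 in R 4.3.3 (trend, 3 residual degrees of freedom) on log2(FPKM + 1), with a threshold of 0.05 on p adjusted by Benjamini-Hochberg over all genes, and the code was tested on simulated data. Chromosomes and sequences came from RefSeq tables of GRCm38.p6, matched by symbol (23209 of 23490 symbols had a chromosome). The 5 promoters and 3 mature miRNAs shown were found there, whereas the called genes Tyrobp and H2-Ab1 had no promoter entry and were passed over. EpiC, cancer and CRC libraries pair by title, as same-numbered libraries come from the same cancer. Deviations from the group means correlated at -0.113 between EpiC and cancer, -0.055 between CRC and cancer and 0.242 between EpiC and CRC.

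The members and the 47 gene lists were chosen with earlier results of these data known. Genes were named by rule: study genes (Brca1, Trp53, Esr1, Pgr, Erbb2); up to 10 called genes with the largest increase or decrease that average 5 FPKM or more in the higher group, without overlap, off chromosome 4 and not small RNA genes; and, per list, up to 5 called members or else the 2 with the highest mean, and the first 3 cell type markers. Members named beyond it, among them Spi1, Mpeg1, Insig1, Asns, Tk1, Kit, Elf5, Col3a1, Tagln and Hmgcs1, and the miRNA and chromosome 4 genes, were chosen after their values were seen. With 2 libraries a group, an exact permutation test of 1 gene cannot give a two-sided p below 0.333. Alternatives covered the pairing, the libraries fitted, pseudocount, filter, scaling, zeros, chromosome 4, shared symbols and each library left out.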

Additional observations from a re-analysis of the deposited data

Results flagged for a closer look

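The entry Mir186, a miRNA hairpin gene, was picked out because its level differed between the media under the same contrast with the cancers. It had 200 and 312 FPKM in the EpiC cultures and was listed at 0 in both CRC cultures and both cancers, and the log2 difference of EpiC minus CRC was 7.97 (SE 0.55, adjusted p = 0.026, limma). It was 1 of 12266 genes called in that comparison. Polyadenylated RNA does not hold mature miRNAs, and a value of 0 in this table needs caution, so no direction is drawn from it.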

How the results depend on the processing

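The count of genes called between EpiC cultures and cancers depended on the processing. The main 83 (31 higher, 52 lower) compare with 29 (10 and 19) with the replicate block, 53 (30 lower) in the 4 libraries alone, 0 (0 and 0) in those 4 with the block (943 genes at an unadjusted p under 0.05, limma), 284 (255 lower) with no filter, 43 (19 lower) at a mean of at least 5 FPKM, 31 (9 and 22) without genes listed at 0, and 33 (5 and 28) without chromosome 4. The genes of the last 3 settings were all among the 83, as were the 29 with the block. With a pseudocount of 0.1, 49 were higher. Leaving out 1 library gave 0 to 284 genes, 0 to 24 higher and 0 to 266 lower; leaving out a library of a group of 2 assumes that the lone library varies like the others. Rescaling by median ratios or FPKM sums and leaving out shared symbols kept each count within 1.5 times the main one. Of alternatives chosen after seeing the data, leaving out small RNA genes gave 110 genes, and leaving out chromosome 4 genes too gave 43 (2 higher). A block with the cancer numbers exchanged, tried because of the negative correlation within numbers, gave 69 (29 and 40).

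EpiC against CRC cultures gave 1 gene, 5 with a pseudocount of 0.1 or at a mean of at least 5 FPKM, 3 after median ratios, 0 to 12 with a library left out, and 0 with the block, either way numbered, with no filter, after equal FPKM sums, without genes listed at 0 and without small RNA genes. The cause of these changes was not tested, beyond the fewer residual degrees of freedom (2 with the block, 1 in the 4 libraries with it, against 3). Among the 109 tested genes that the naming rule gave, 101 kept direction and call with the block and 8 lost the call; Spi1, named outside the rule, lost it too. Depth is unknown, and small differences could not be detected with 2 libraries a group.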

Other observations

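None of 19 tested targets of the growth regulator YAP was called. The fitted mean was higher in the EpiC cultures for 16, against 55.2% of all genes tested. The value was higher in pair 1 for 13 and in pair 2 for 12. Both cultures lay above both cancers for 6, against 22.9% of all genes tested. The median log2 difference was 0.52, and 4 had a higher mean at an unadjusted p under 0.05 (limma), against 2.62% of all genes tested. Axl, a receptor tyrosine kinase, had 86.9 and 67.6 FPKM in the EpiC cultures and 19.4 and 18 FPKM in the cancers (log2 difference 1.98, SE 0.46, adjusted p = 0.18, limma). Cyr61, a secreted matrix protein, had 404 and 289 FPKM in the EpiC cultures and 69.3 and 113 FPKM in the cancers (log2 difference 1.94, SE 0.64). Both genes were higher in each culture than in either cancer.

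Inflammatory cytokine genes did not share a direction: of 21 tested, 12 had a higher mean in the EpiC cultures, against 55.2% of all genes tested. None was called. At an unadjusted p under 0.05 (limma), 1 was higher and 3 lower, against 2.62% and 4.18% of all genes tested. Ccl5, a chemokine for T cells and macrophages, had 58.9 and 299 FPKM in the EpiC cultures and 4.59 and 14.3 FPKM in the cancers (log2 difference 3.86, SE 1.03, adjusted p = 0.25, limma). Il1b, interleukin 1 beta, had 0.131 and 0.296 FPKM in the EpiC cultures and 11.7 and 51.9 FPKM in the cancers (log2 difference -4.42, SE 0.77, adjusted p = 0.074, limma). These genes were chosen after their values were seen.

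None of 14 squamous differentiation genes tested was called between EpiC and CRC cultures. Lgals7, galectin 7, had 17.2 and 2.28 FPKM in the EpiC cultures, 84.0 and 891 FPKM in the CRC cultures, and 322 and 2.05 FPKM in the cancers. The median log2 difference of EpiC minus CRC over these genes was -2.54, against 0.08 for all genes tested. Their summed level was 105 and 76.5 FPKM in the EpiC cultures and 282 and 2285 FPKM in the CRC cultures, the highest being CRC culture 2, whose FPKM total stood apart.

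The other deposited table holds 1 EpiC culture each of cells labelled Brca1mm, Brca1mp and CYP19A1. It was normalised separately, so levels are set side by side without a test. Lyz2 had 0.631, 0.561 and 0.479 FPKM there, again below 1 FPKM. Bgn, by contrast, had 1943, 1233 and 1903 FPKM in those cultures, against 0.0450 and 0.351 FPKM in EpiC cultures 1 and 2 of the cancers. Col1a1 had 987, 657 and 1436 FPKM there, against 0.296 and 0.478 FPKM in EpiC cultures 1 and 2. Bgn and Col1a1 thus had far higher listed values in the other table, while Lyz2 was below 1 FPKM in all 5 cultures. The titles of the cultures in the other table do not tie them to either cancer, and the labels Brca1mm and CYP19A1 name other genotypes. Other fibroblast and macrophage markers are not compared here.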
